A study of Mus musculus with 267 samples.

Results

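RNA polymerase II (Pol II), the enzyme that transcribes protein-coding genes, was mapped by chromatin immunoprecipitation with sequencing (ChIP-seq) in bone marrow-derived macrophages (BMDMs) of SPRET/EiJ (SPRET), an inbred mouse strain derived from wild Mus spretus. The macrophages were grown from marrow of young adult female mice in M-CSF, the cytokine that drives macrophage differentiation, and were either left untreated (basal, 3 libraries) or given 20 ng/mL interleukin-4 (IL-4) for 24 h (3 libraries). All 54755 regions of the SPRET table were compared between these 6 libraries of the 267 samples in the series. Each region is a 1000 bp window around a site of open chromatin found by ATAC-seq in basal or IL-4-treated SPRET macrophages, and the authors' annotation placed 9951 regions (18.2%) at promoters and 41141 at distal positions, of which 23888 lay in introns and 17253 between genes. The remaining 3663 regions lay in exons, untranslated regions, near transcript ends or in noncoding transcripts. Values are reads (tags) in the window scaled to 10000000 tags per library, called normalized tags, and since every window has the same width they can be compared between regions. The labels describe biological replicates without naming the animals, so p-values measure the spread between these libraries, which may be partly technical.

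IL-4 signals through a receptor whose Janus kinases phosphorylate STAT6, which enters the nucleus and binds DNA, and in macrophages this response is called alternative activation. Among its known targets are genes of arginine and lipid metabolism, C-type lectins and chemokines. Pol II ChIP-seq reads gather where polymerase assembles at promoters, along the bodies of genes being transcribed, and at active enhancers, which are often transcribed into short unstable RNAs. A change of Pol II at a site inside or just past a gene can therefore be a change at that site or of polymerase travelling through it, and these cannot be told apart in windows of this kind. In bulk samples, more polymerase per cell and more cells that carry it cannot be told apart either.

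The mm10 reference bases of 4 windows are printed here because 3 are the distal regions with the largest rise of Pol II and the last is the promoter with the largest rise. They are taken from the GRCm38.p6 genome of RefSeq, plus strand, so the SPRET genome may differ from them. Capitals mark matches to the motifs searched. These were STAT6 as TTCNNNNGAA, STAT as TTCNNNGAA, EGR as GNGTGGGNG, PU.1 as GAGGAAGT, AP-1 as TGANTCA and C/EBP as TTGCNNAA, each on both strands. The 3 distal runs are the central 300 bases of the windows, and the promoter run stops at the first exon.
Socs1 distal region, 4715 bp downstream of the gene start, chr16:10780672-10780971: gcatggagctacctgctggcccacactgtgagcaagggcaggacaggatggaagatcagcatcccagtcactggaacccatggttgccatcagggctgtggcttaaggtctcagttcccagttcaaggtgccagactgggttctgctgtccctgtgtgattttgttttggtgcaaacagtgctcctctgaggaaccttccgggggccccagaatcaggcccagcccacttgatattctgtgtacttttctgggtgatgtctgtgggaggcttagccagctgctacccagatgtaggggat
Ang2 distal region, 10010 bp downstream of the gene start, chr14:51185764-51186063: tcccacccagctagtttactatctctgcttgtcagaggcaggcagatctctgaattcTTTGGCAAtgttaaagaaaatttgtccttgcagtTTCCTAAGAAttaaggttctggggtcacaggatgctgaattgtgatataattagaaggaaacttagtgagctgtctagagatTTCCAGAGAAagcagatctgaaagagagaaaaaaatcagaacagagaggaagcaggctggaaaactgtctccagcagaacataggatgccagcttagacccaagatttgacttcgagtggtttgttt
Fbp1 distal region, 7204 bp upstream of the gene start, chr13:62895337-62895636: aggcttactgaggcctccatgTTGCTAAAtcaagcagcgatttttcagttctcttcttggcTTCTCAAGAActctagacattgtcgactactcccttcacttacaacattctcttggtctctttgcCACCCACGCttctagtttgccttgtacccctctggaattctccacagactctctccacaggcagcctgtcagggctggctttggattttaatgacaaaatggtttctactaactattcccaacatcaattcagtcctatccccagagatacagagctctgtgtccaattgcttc
Pdcd1lg2 promoter, chr19:29410714-29410918: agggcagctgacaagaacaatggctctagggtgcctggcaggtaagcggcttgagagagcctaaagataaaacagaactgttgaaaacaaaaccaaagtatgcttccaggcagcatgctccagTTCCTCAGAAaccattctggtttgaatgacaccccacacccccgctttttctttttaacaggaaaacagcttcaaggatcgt
The Ang2 region held 2 STAT6 matches (chr14:51185855-51185864 and chr14:51185937-51185946) and a C/EBP match, the Fbp1 region held 1 match each of STAT6, EGR and C/EBP, and the Pdcd1lg2 promoter held 1 STAT6 match. No motif searched had a match in the central 300 bases of the Socs1 window, and the rest of the window was not searched.

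The libraries held 10334764 to 19476882 tags, so that 8 normalized tags stood for 8.27 to 15.6 reads. Regions took up 29.9% to 34.6% of the tags of basal libraries and 28.6% to 31.8% of those at 24 h, and the median change over all regions was -0.10 on the log2 scale (-0.01 when libraries were scaled by the median of region ratios). All 10 macrophage marker genes examined had a promoter among the regions, with means of 2681 basal and 2190 normalized tags at 24 h at Lyz2 (lysozyme) and 1647 and 1914 at Cd68, and the lowest at Fcgr1 (5.29 and 2.21, with 1 of the 24 h libraries at 0). Of 42 markers of other cell types only 8 had a promoter among the regions (1 of B cells, 1 of T and NK cells, 1 of dendritic cells, 3 of granulocytes and progenitors and 2 of fibroblasts and endothelium, and none of erythroid or mast cells and basophils). Their Pol II summed to 9.30 to 14.1 tags at 24 h and 21.3 to 23.2 basal for B cells (Ms4a1), 5.54 to 35.3 and 15.5 to 29.7 for T and NK cells (Klrb1c), 16.6 to 66.8 and 6.67 to 32.9 for dendritic cells (Zbtb46), 71.1 to 98.9 and 68.3 to 103 for granulocytes, and 4.24 to 6.47 and 1.52 to 13.6 for fibroblasts. None of the 8 was called by limma without a block, edgeR or DESeq2 (1 lower and 1 higher at an unadjusted p under 0.05). With the replicate number as a block, limma called Zbtb46 (adjusted p = 0.048) and the granulocyte marker S100a8 (0.037) higher, against 1.59% of all promoters. The part of these markers in the results was not tested. Replicate 1 of the 24 h libraries stood out at the regions described next: it was the highest library at 308 (72.0%) of the regions called higher. Basal replicate 1 was the highest library at 97 (65.5%) of the regions called lower.

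Over all regions limma called 428 higher (0.782%) and 148 lower (0.27%) at 24 h, at a Benjamini-Hochberg adjusted p under 0.05. Distal regions had 359 higher (0.873%) and 109 lower (0.265%), and promoters 33 higher (0.332%) and 26 lower (0.261%). The 428 rises formed 361 separate stretches of DNA near 178 genes, and the 148 falls formed 143 stretches near 110 genes. Libraries of the groups did not overlap at any of the 576 called regions, against 18.5% of all regions (15.3% of promoters and 19.4% of distal regions). For the largest rises and falls named below, groups without overlap were also a condition of selection. Pol II at promoters had a median of 110 basal and 96.7 normalized tags at 24 h, and at distal regions 13.9 and 13.6.

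These counts depended on single libraries. Without replicate 1, 2 or 3 of the 24 h libraries limma called 38, 76 and 217 regions higher and 1, 14 and 26 lower, and without basal replicate 1, 2 or 3 it called 141, 279 and 130 higher and 8, 92 and 9 lower. Basal and 24 h libraries of the same replicate number deviated together, and with the number as a block limma called 1949 regions higher (3.56%) and 2644 lower (4.83%), including all 428 and 148. The blocked fit called 158 promoters higher (1.59%) and 617 lower (6.2%) and 1633 distal regions higher (3.97%) and 1844 lower (4.48%), so that its falls outnumbered its rises. With median-ratio scaling added to the block, 2284 regions were higher (4.17%) and 1483 lower (2.71%), so that rises outnumbered falls again, although at promoters 298 falls (2.99%) still outnumbered 195 rises (1.96%).

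**Figure D1:**
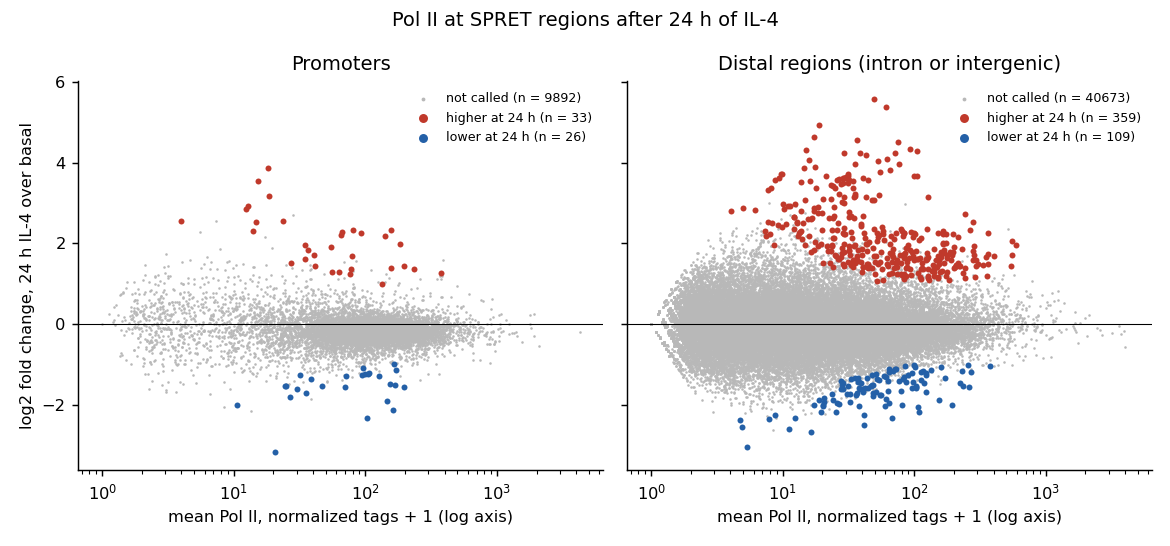
Change of Pol II (log2 fold change of 24 h IL-4 over basal) against its mean (normalized tags + 1, log axis) at promoters (left) and distal regions (right), with 1 point per region, red where limma called it higher and blue where lower. The 33 rises at promoters reach 3.88 and the 359 rises at distal regions reach 5.58, and the largest falls are -3.18 and -3.05.

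Among promoters that gained Pol II, the largest change was at Pdcd1lg2, which encodes PD-L2, a ligand of the inhibitory receptor PD-1 on T cells. Its promoter (chr19:29410363-29411363, the window around the last sequence above) held 0, 2.28 and 1.54 normalized tags in the basal libraries and 60, 16.3 and 24.0 at 24 h. All 24 h libraries lay above all basal ones. The log2 fold change on the scale of tags plus 1 was 3.88 ± 0.58 (SE, n = 3 and 3, limma adjusted p = 0.012). EGR2 and STAT6 peaks covered this promoter at 24 h and not in basal cells.

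Pol II also rose at other genes of alternative activation. The Tmem26 promoter, of a transmembrane protein, held 17.4, 27.4 and 22.1 normalized tags basal and 147, 84.8 and 90.5 at 24 h, with a log2 fold change of 2.20 ± 0.28 and an adjusted p of 0.0068. At Mgl2, which encodes the C-type lectin CD301b, the promoter held 15.5, 10.7 and 19.5 tags basal and 49.9, 64.3 and 52.6 at 24 h (log2 fold change 1.83 ± 0.29, limma adjusted p = 0.015). Ptgs1, which encodes cyclooxygenase-1, went from 51.3, 41.1 and 33.9 tags to 139, 106 and 86.8 (1.36 ± 0.26, limma adjusted p = 0.032). In each of these 3 genes every 24 h library lay above every basal library. Of the 28 genes in the alternative activation list, 16 had a region at a start. Of these, 5 were higher (Pdcd1lg2, Tmem26, Mgl2, Ptgs1 and Slc7a2) and none lower, against 0.332% and 0.261% of all promoters. The region counted for Slc7a2 is not its promoter but an intronic window at an alternative start, 36112 bp into the gene (chr8:40898008-40899008). The median log2 fold change of the list was 1.17, against -0.17 over all promoters. The blocked fit called 10 of the 16 higher and 1 lower, against 1.59% higher and 6.2% lower of all promoters. With median-ratio scaling added to the block, 10 were higher and none lower, against 1.96% and 2.99% of all promoters.

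Other members of the list did not pass. The promoter of Mmp12, macrophage elastase, held 78.4, 316 and 228 normalized tags basal and 559, 823 and 344 at 24 h (log2 fold change 1.60 ± 0.46, limma adjusted p = 0.14), with groups that did not overlap. Ccl17, a chemokine that attracts T helper 2 cells, had 0.97, 0 and 2.57 tags basal and 12.7, 4.95 and 16.6 at 24 h, also without overlap (2.56 ± 0.59, limma adjusted p = 0.074). At Mrc1, the mannose receptor, values were 293, 272 and 285 basal and 339.7, 377 and 239 at 24 h, so the groups overlapped (0.14 ± 0.22, limma adjusted p = 0.85). Igf1, an insulin-like growth factor, had a log2 fold change of -0.03, a sign that turned with median-ratio scaling (0.069), and the lectin gene Clec10a of -0.59. No region lay within 1000 bp of a start of Arg1, Retnla or Chil3, so those 3 genes have no promoter value here. In the blocked fit Mmp12 (limma adjusted p = 0.0014) and Fn1 (0.0038) were among those that passed as higher. Clec10a (0.031) passed as lower there, a call that was lost with median-ratio scaling added to the block.

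Of the receptor and JAK-STAT list, 15 of 17 genes had a region. Of these 1, Socs1, was higher and none lower, against 0.332% and 0.261% of all promoters. The list median was -0.07. Socs1 encodes an inhibitor of Janus kinases that is induced by the cytokines it restrains. Its promoter (chr16:10785128-10786128) held 26.1, 83.0 and 42.6 normalized tags basal and 339.7, 323 and 116 at 24 h, without overlap, and the log2 fold change was 2.34 ± 0.45 (limma adjusted p = 0.037). Cish, another inhibitor of the family, had 11.6, 2.28 and 5.13 tags basal and 87.9, 33.2 and 22.2 at 24 h (2.71 ± 0.57, limma adjusted p = 0.0504) and did not pass. The genes of the pathway itself did not pass either, with log2 fold changes of -0.95 at Il4ra, -0.33 at Stat6 and -0.07 at Jak1 (adjusted p = 0.14, 0.59 and 0.95). The blocked fit called 3 of the 15 higher and 2 lower, against 1.59% higher and 6.2% lower of all promoters.

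Transcription factors of the IL-4 response and the macrophage lineage included 2 rises and no fall among 28 genes with a region. Over all promoters 0.332% were higher and 0.261% lower. Irf4, a factor required for much of alternative activation, had 19.4, 36.6 and 20.0 normalized tags at its promoter basal and 198, 119 and 84.0 at 24 h (log2 fold change 2.33 ± 0.34, limma adjusted p = 0.011). Batf3, an AP-1 family factor, had 28.1, 46.4 and 36.5 basal and 121, 109 and 129 at 24 h (1.69 ± 0.24, limma adjusted p = 0.0097). Neither gene's groups overlapped. Egr2 had the next largest change in this list, from 182, 260.4 and 262 tags to 679, 399 and 472, and missed the threshold (1.12 ± 0.25, limma adjusted p = 0.065). Lineage factors with much Pol II did not pass. Cebpa had 665 tags basal and 656 at 24 h (-0.01), Zeb2 670 and 643 (-0.06) and Junb 983 and 875 (-0.17), and the signs at Cebpa and Zeb2 turned with median-ratio scaling (0.088 and 0.038). Pparg had 167 and 168 tags. The list median was -0.08, and the blocked fit called 5 higher and 2 lower, against 1.59% and 6.2% of all promoters. With median-ratio scaling added to the block these were 5 and 1, against 1.96% and 2.99%.

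Rises outside these lists were led by genes at low basal levels. Cyp1b1, a cytochrome P450 enzyme, had 1.94, 6.09 and 1.03 normalized tags at its promoter basal and 49.0, 27.6 and 20.3 at 24 h (log2 fold change 3.16 ± 0.52, limma adjusted p = 0.016). The promoters of the noncoding transcripts Gm6116 and 9530059O14Rik had log2 fold changes of 2.54 and 2.94, Rerg, a Ras-like small GTPase, 2.52 and Plekhg1, a guanine nucleotide exchange factor, 2.31. Kdelr3, a receptor that returns proteins to the endoplasmic reticulum, rested on 1 read basal and 21 reads at 24 h, a ratio of 24.5 with an exact counting interval of 3.94 to 1013 at 95%. Pdgfrl (platelet-derived growth factor receptor-like) rose from 0.97, 0.76 and 1.03 tags to 56.6, 14.8 and 11.1 (3.54 ± 0.57, limma adjusted p = 0.015), and the centre of its promoter window lay 3.39 kb past the annotated end of Slc7a2, described below, on the same strand. H3K27ac at that window was 2.17 tags basal and 1.96 at 24 h. Such counting intervals cover counting error only.

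These calls at promoters were not all kept when a library was left out. Of the 10 largest rises at promoters, 0, 0 and 6 were called without 24 h replicate 1, 2 and 3 (adjusted p from 0.071 to 0.19, 0.052 to 0.18 and 0.021 to 0.14) and 2, 5 and 0 without basal replicate 1, 2 and 3 (0.046 to 0.18, 0.014 to 0.10 and 0.052 to 0.18). Pdcd1lg2 was called in 3 of the 6 fits, Irf4 and Socs1 in 2. Of the other listed genes, Tmem26 was called in 5 of 6, Mgl2 and Batf3 in 2, Ccl2 in 1 and Ptgs1 in none. The log2 fold changes of the 10 promoters stayed between 1.96 and 4.27 in all 6 fits. In the blocked fit all 47 called regions named here had an adjusted p of 0.00679 or less.

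**Figure D2:**
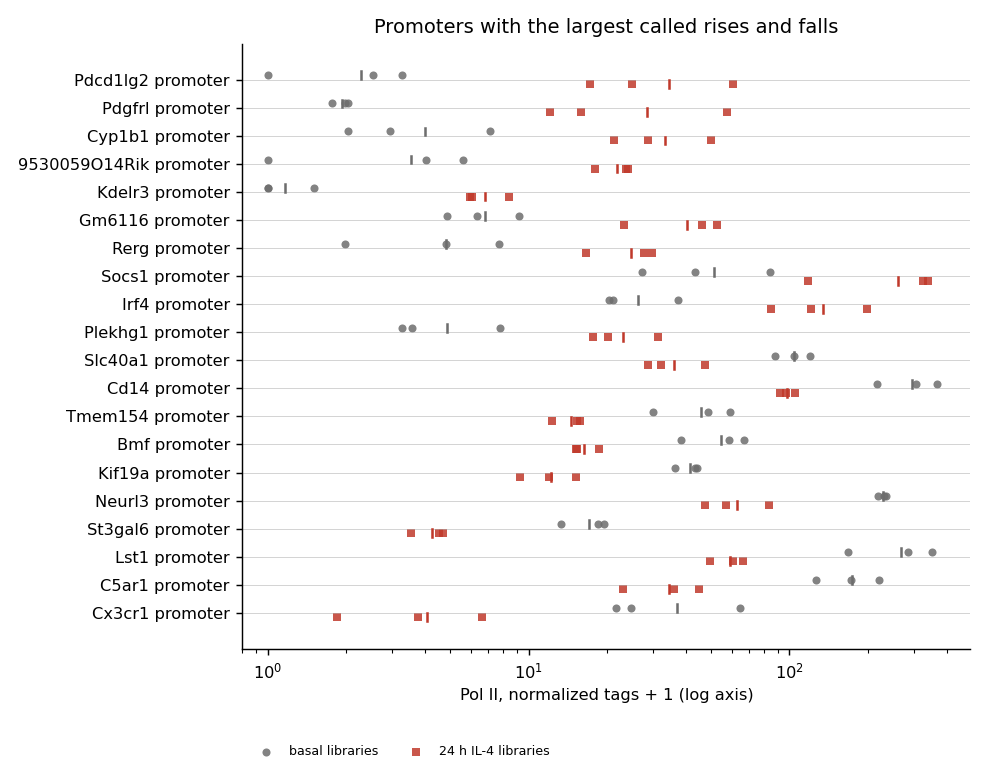
Pol II (normalized tags + 1, log axis) in each of the 3 basal (grey circles) and 3 IL-4 libraries (red squares) at the 10 promoters with the largest called rises and the 10 with the largest called falls, with a bar at each group mean. The 2 groups do not overlap at any of the 20 promoters, which was a condition of their selection. Socs1, Irf4, C5ar1, Lst1, Neurl3 and Cd14 are the ones with a group mean above 110 tags.

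The promoters that lost Pol II included receptors of the innate immune response. Cx3cr1, the receptor of the chemokine fractalkine, had the largest fall, from 63.9, 23.6 and 20.5 normalized tags basal to 0.85, 5.65 and 2.77 at 24 h (log2 fold change -3.18 ± 0.55, limma adjusted p = 0.022). C5ar1, the receptor of the complement fragment C5a, fell from 219.7, 125 and 171 tags to 21.97, 43.8 and 35.1 (-2.34 ± 0.30, limma adjusted p = 0.0063). Cd14, the co-receptor of Toll-like receptor 4 for bacterial lipopolysaccharide, fell from 367, 215 and 303 tags to 91.3, 96.1 and 104 (-1.56 ± 0.23, limma adjusted p = 0.011). At all 3 genes every 24 h library lay below every basal library, and H3K27ac was called lower at Cx3cr1 and C5ar1 (log2 fold change -2.65 and -1.76) and not at Cd14 (-1.10, limma adjusted p = 0.18).

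Further falls were at Lst1, a leukocyte-specific transcript (350.3, 167 and 283 normalized tags to 60, 48.8 and 65.6, log2 fold change -2.12), and Neurl3, an E3 ubiquitin ligase (233, 217 and 229 to 46.5, 82.7 and 56.3, -1.90). Slc40a1, which encodes the iron exporter ferroportin, fell from 104, 119 and 86.8 tags to 31.3, 46.7 and 27.7 (-1.55 ± 0.26, limma adjusted p = 0.018). St3gal6, a sialyltransferase, fell by 2.00 on the log2 scale, Kif19a, a kinesin, by 1.79, Bmf, a pro-apoptotic BH3-only protein, by 1.71 and Tmem154 by 1.62. Leaving out the 24 h replicates 1, 2 and 3 left 0, 3 and 4 of these 10 promoters called (adjusted p from 0.056 to 0.14, 0.027 to 0.16 and 0.026 to 0.092), and leaving out basal replicates 1, 2 and 3 left 3, 6 and 3 (0.043 to 0.21, 0.0059 to 0.12 and 0.043 to 0.20). C5ar1 and Neurl3 were called in 5 of the 6 fits, Lst1 in 4, and Cx3cr1, St3gal6 and Kif19a in none.

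The list of inflammatory and NF-kB genes held 22 genes with a region. Of these, 1 was higher and 2, Cx3cr1 and Cd14, were lower, against 0.332% and 0.261% of all promoters. The rise was at Ccl2, a chemokine that recruits monocytes, with 26.1, 28.2 and 9.76 normalized tags basal and 129, 149.9 and 48.9 at 24 h (log2 fold change 2.28 ± 0.46, limma adjusted p = 0.045). Tnf had 572 and 669 tags (0.23), Nfkbia 395 and 368 (-0.07), Nlrp3 85.9 and 32.4 (-1.26, limma adjusted p = 0.24) and Il18 53.7 and 23.6 (-1.16, 0.11), and none of these passed. The list median was -0.21, and the blocked fit called 1 higher and 6 lower, against 1.59% and 6.2% of all promoters. Cd14 was also the 1 macrophage marker of 10 that was called, against 0.261% of all promoters called lower. In that list the median was -0.49 and the blocked fit called 4 lower, against the same 6.2% of all promoters. With median-ratio scaling added to the block, 2 macrophage markers were lower. In the inflammatory list 1 gene was then higher and 5 lower. Of all promoters 1.96% were higher and 2.99% lower by that fit.

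In the lipid list, 1 of 19 genes with a region was higher and none lower, against 0.332% and 0.261% of all promoters. The list median was -0.29. The blocked fit called Scd2 and Fabp4 higher and Plin2, which coats lipid droplets, lower, against 1.59% higher and 6.2% lower of all promoters. With median-ratio scaling added to the block, 3 genes of this list were higher and none lower, against 1.96% and 2.99% of all promoters. Scd2, a stearoyl-CoA desaturase that makes monounsaturated fatty acids, had 101, 92.1 and 68.3 normalized tags at its start, a window annotated as 5′ UTR, and 177, 176 and 187 at 24 h (log2 fold change 1.06 ± 0.21, limma adjusted p = 0.044), a call that was lost when any 1 of the 6 libraries was left out (limma adjusted p from 0.080 to 0.16). Fabp4, a fatty acid binding protein, had 33.9, 49.5 and 48.3 tags basal and 148, 125 and 71.1 at 24 h and did not pass (1.32 ± 0.30, limma adjusted p = 0.065). Without a block, limma called no gene among the lists for antigen presentation (14 genes with a region), cell cycle (29), glycolysis and the TCA cycle (24), interferon response (18), lysosome (21) and housekeeping (12). At an unadjusted p under 0.05 these lists had 1, 0, 0, 0, 2 and 0 higher and 0, 2, 0, 4, 5 and 0 lower, in that order, against 1.96% higher and 6.8% lower of all promoters. The blocked fit called 2 cell cycle genes lower (Ccnd3 and Birc5), 2 interferon genes lower (Oas2 and Irf8), and 2 lysosome genes higher and 5 lower, and none in the other 3 lists. Over all promoters that fit called 1.59% higher and 6.2% lower. With median-ratio scaling added to the block, 1 gene each of antigen presentation and of glycolysis and the TCA cycle was higher, no cell cycle gene was called, and the lysosome list had 2 higher and 2 lower. Over all promoters 1.96% were then higher and 2.99% lower. In the lysosome list edgeR and DESeq2 each called 1 gene lower, and in the other 5 lists they called none. The housekeeping genes had a median of -0.13 and the interferon genes of -0.31, against -0.17 over all promoters.

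At distal sites the largest rise was 4715 bp downstream of the start of Socs1, between genes (chr16:10780321-10781321), in the window of the first sequence above. This region held 0, 0.76 and 2.05 normalized tags basal and 169, 74.2 and 45.3 at 24 h, with no overlap and a log2 fold change of 5.58 ± 0.54 (limma adjusted p = 0.0022). H3K27ac there was 1.42 and 8.96 tags and was not called (limma adjusted p = 0.16). Of the 5 factors mapped only PU1 had a peak, at 24 h. All 3 regions inside the Socs1 gene were called higher for Pol II, as was its promoter.

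The region 10010 bp downstream of Ang2, a ribonuclease of the angiogenin family, which carries 2 STAT6 matches in its sequence above, held no read in any basal library and 69.3, 21.2 and 17.6 normalized tags at 24 h. With 131 reads against 0, and a floor of 3 reads set for the basal group as a whole, Pol II was at least 50.9-fold higher (fitted log2 fold change 4.94, limma adjusted p = 0.0034). Upstream of Fbp1, a gluconeogenic fructose-1,6-bisphosphatase, the region with matches of STAT6, EGR and C/EBP held 0.97, 0 and 0 tags basal and 49.9, 22.6 and 24.0 at 24 h (4.63 ± 0.49, limma adjusted p = 0.0027), or 117 reads against 1, a ratio of 137 with a counting interval of 24.0 to 5437. Both regions gained a STAT6 peak at 24 h, and H3K27ac rose from 11.7 to 197 tags at Ang2 and from 0.425 to 173 at Fbp1 (log2 fold changes 3.75 and 6.92, both called).

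Another large distal rise lay near Pim1, a kinase induced by STAT signalling. The Pim1 region, 46721 bp upstream, held 1.94, 0 and 4.62 normalized tags basal and 95.5, 28.3 and 37.9 at 24 h (log2 fold change 4.23 ± 0.63, limma adjusted p = 0.011). Plekhf1, an endosomal adaptor, had a region 14472 bp downstream of its start that held 9.68, 9.90 and 3.59 tags basal and 270.4, 135 and 117 at 24 h (4.33 ± 0.41, limma adjusted p = 0.0022). At Plekhf1 the promoter was also called higher (log2 fold change 2.18), and 10 of the 11 regions in or nearest to the gene were called higher. Regions at Ucn2 (urocortin, 2177 bp downstream), Zyx (zyxin of focal adhesions, 10503 bp upstream) and Gfra2 (a GDNF family receptor, 9829 bp upstream) changed by 4.57, 4.06 and 3.88. The centre of the Ucn2 region lay 3.31 kb past the annotated end of Col7a1. Whether polymerase travelling on from a gene adds to these rises was not tested. Inside Tmem26, an intronic region held 2.90, 3.05 and 3.59 tags basal and 125, 64.3 and 51.7 at 24 h (4.18 ± 0.37, limma adjusted p = 0.0017), beside the rise at the gene's promoter. All 10 of the largest distal rises, including a region in Slc7a2, had an ATAC-seq peak at 24 h only, and H3K27ac was called higher at 8 of them, the exceptions being Socs1 and Plekhf1.

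Most of these distal calls were kept when a library was left out. Without 24 h replicates 1, 2 and 3, 6, 8 and 9 of the 10 were called (adjusted p from 0.023 to 0.12, 0.027 to 0.056 and 0.0084 to 0.069), and without basal replicates 1, 2 and 3, 8, 9 and 10 were called (0.0061 to 0.080, 0.0059 to 0.056 and 0.018 to 0.047). Socs1, Ang2, Fbp1, Slc7a2, Plekhf1 and Tmem26 were called in all 6 fits.

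**Figure D3:**
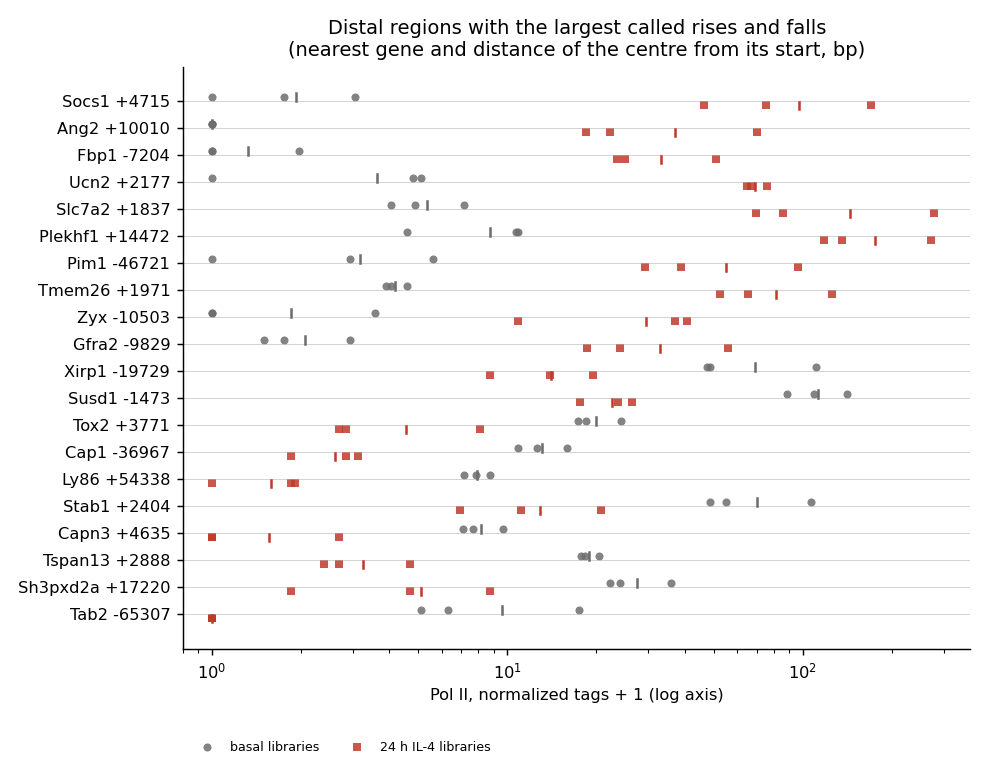
Pol II (normalized tags + 1, log axis) in each basal (grey circles) and 24 h IL-4 library (red squares) at the 10 distal regions with the largest called rises and the 10 with the largest called falls, with bars at the group means. The largest rise, near Socs1, goes from a mean of 0.937 to 96.2 tags, and the largest fall, near Tab2, from 8.63 to 0.

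Among distal regions that lost Pol II, the largest change was near Tab2, an adaptor of the TAK1 kinase. The region 65307 bp upstream of its start held 16.5, 5.33 and 4.11 normalized tags basal and no read at 24 h, at least 9.14-fold lower (32 reads against 0, fitted log2 fold change -3.05, limma adjusted p = 0.027). An intronic region of Sh3pxd2a, a podosome scaffold, held 34.8, 21.3 and 23.1 tags basal and 0.85, 7.78 and 3.69 at 24 h (-2.66 ± 0.53, limma adjusted p = 0.043). In Stab1, a scavenger receptor, an intronic region fell from 105, 54.1 and 47.8 tags to 5.92, 19.8 and 10.2 (-2.49 ± 0.43, limma adjusted p = 0.021). Susd1 had a region 1473 bp upstream of its start that fell from 140.3, 87.6 and 108 tags to 22.8, 25.5 and 16.6 (-2.32 ± 0.27, limma adjusted p = 0.0042), a call kept in all 6 fits. A region inside the annotated Cx3cr1 gene (chr9:120042827-120043827) has the start of Xirp1 as its nearest protein-coding start in the reference annotation. This region fell from 110.3, 46.4 and 47.8 tags to 18.6, 7.78 and 12.9 (-2.25 ± 0.40, limma adjusted p = 0.025), as the Cx3cr1 promoter did.

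The remaining large falls were in introns of Tspan13 (a tetraspanin, log2 fold change -2.60), Capn3 (a calpain protease, -2.54), Ly86 (the partner of the Toll-like receptor homologue RP105, -2.37) and Tox2 (-2.33), and 36967 bp upstream of Cap1 (an actin regulator, -2.35). Capn3 and Ly86 rested on 30 and 29 reads basal against 2 at 24 h, ratios of 12.9 and 12.4 with counting intervals of 3.26 to 111 and 3.14 to 107. Of the 10 distal falls, 1, 2 and 2 were called without 24 h replicates 1, 2 and 3 (adjusted p from 0.042 to 0.17, 0.027 to 0.18 and 0.021 to 0.13), and 1, 2 and 1 without basal replicates 1, 2 and 3 (0.033 to 0.22, 0.011 to 0.12 and 0.037 to 0.19).

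Called rises gathered at a few loci. At Slc7a2, a transporter that brings arginine into the cell, 31 of the 32 regions in the gene or nearest to it were called higher, over 70.7 kb (chr8:40850616-40921330). Their log2 fold changes lay between 1.84 and 4.51 with a median of 3.58, and 24 h replicate 1 was the highest library in all 31. The promoter of the gene held 35.8, 28.2 and 22.6 normalized tags basal and 251, 122 and 89.6 at 24 h (2.26, limma adjusted p = 0.013), a smaller change than the first intronic region at 1837 bp, with 3.87, 3.05 and 6.16 tags basal and 278, 84.8 and 68.3 at 24 h (4.51 ± 0.48, limma adjusted p = 0.0029). The window at an alternative start within the gene, which is the one counted in the alternative activation list, changed by 2.63 ± 0.50 (limma adjusted p = 0.036). H3K27ac at this window was 1.4 normalized tags basal and 2.3 at 24 h.

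Fam20c, a Golgi kinase that phosphorylates secreted proteins, also had 31 called regions, of 37 in the gene or nearest to it, over 47.9 kb (chr5:138757012-138804920). They changed by 1.36 to 2.34 with a median of 1.69. Its promoter had more Pol II than its body in basal cells and changed less, from 478, 620.5 and 289 normalized tags to 894, 877 and 512 (0.74), and was not called. The region 10672 bp into the gene held 94.8, 184 and 108 tags basal and 575.5, 623 and 598 at 24 h. Atp6v0a1, a subunit of the lysosomal proton pump, had 12 of 16 regions called higher, of which 10 lay in the gene and 2 upstream. Naglu, a lysosomal glycosidase, is the next gene downstream, and 12 of the 13 regions nearest to it were called higher, all of them before its start. Of these 12, 8 lay in Atp6v0a1 and count for both genes, and 4 lay in no gene. The remaining region, the Naglu promoter, held means of 381 and 382 normalized tags (log2 fold change -0.016, limma adjusted p = 0.99). Gm5294 starts past the end of Fam20c, and of its 19 regions 11 were called higher, all before its start, with 7 in Fam20c and 4 in no gene. The 8 regions past the Gm5294 start had group means of 0.17 to 2.42 tags and none was called. The blocked fit called the same number in each of these 5 loci. Windows within a gene share its polymerase and are not replicates of a condition.

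**Figure D4:**
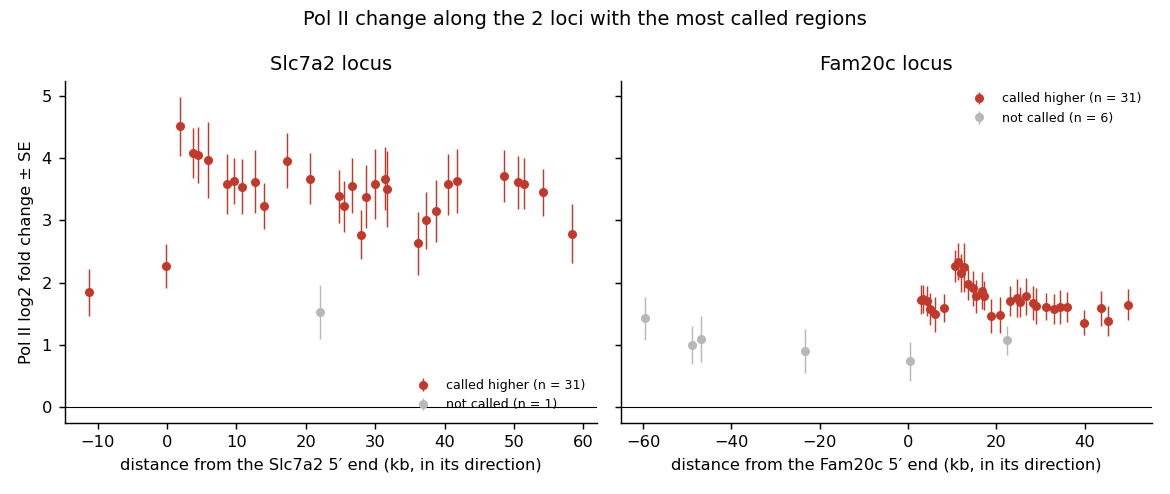
Change of Pol II (log2 fold change ± SE from limma) at each region in or nearest to Slc7a2 (left, 32 regions) and Fam20c (right, 37 regions), against the distance of its centre from the gene's 5′ end (kb, in the direction of the gene), in red where called higher. At Slc7a2 the 31 called regions lie between 1.84 and 4.51, and at Fam20c between 1.36 and 2.34, with the Fam20c promoter at 0.74 in grey.

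More widely, 199 of the called rises were intronic and lay in 82 genes, of which 61 had a promoter among the regions. That promoter had a positive change in 47 of the 61 and was called in 9, with a median log2 fold change of 0.58 against -0.17 over all promoters. The 57 intronic falls lay in 52 genes, of which 33 had a promoter, with a negative change in 31, a call in 6 and a median of -0.80. The change was positive at 2445 of all 9951 promoters, of which 0.332% were called higher and 0.261% lower. Read from the promoter, 21 of the 30 genes with a promoter called higher had regions inside the gene, and the median change inside was positive in all 21, while 19 of the 23 genes with a promoter called lower had such regions and the median inside was negative in all 19. Regions called inside the gene were found in 12 and 7 of these genes. The median change over all intronic regions was -0.05.

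Other chromatin readouts of SPRET macrophages were compared at the called regions. Of the regions called higher for Pol II, 270 (63.1%) had an ATAC-seq peak at 24 h only, against 24.3% of all regions, and of those called lower 33 (22.3%) had a peak in basal cells only, against 18.2%, while 107 (72.3%) had one in both. H3K27ac, a histone mark of active promoters and enhancers, was called higher at 165 (38.6%) of the 428 regions with more Pol II, against 0.994% of all regions, and its median went from 16.4 to 106 normalized tags. The change of H3K27ac was positive at 93.5% of these regions, with a median log2 fold change of 1.51 against -0.09 over all regions. Where Pol II fell, H3K27ac was called lower at 21 of 148 (14.2%), against 0.192% of all regions, or at 7 with median-ratio scaling, and its change was negative at 97.3% with a median of -1.07.

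H3K4me3, a mark of promoters, had median changes of 0.89 where Pol II rose and -0.54 where it fell, against 0 over all regions, and no region was called by limma among all 54755. At an unadjusted p under 0.05 it was higher at 139 and lower at 3 of the regions with more Pol II and lower at 46 and higher at 1 of those with less, against 3.82% higher and 2.35% lower of all regions. For H3K4me2 limma also called no region, and 53 of the 428 rises were higher and 54 lower at an unadjusted p under 0.05. Of the 148 falls 0 were higher and 103 lower at that p, against 1.05% higher and 31.4% lower of all regions. Its median was 0.06 where Pol II rose and -0.48 over all regions, or 0.50 and -0.02 with median-ratio scaling, so the difference from all regions was 0.54 and 0.52. Each mark had 2 libraries per group.

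**Figure D5:**
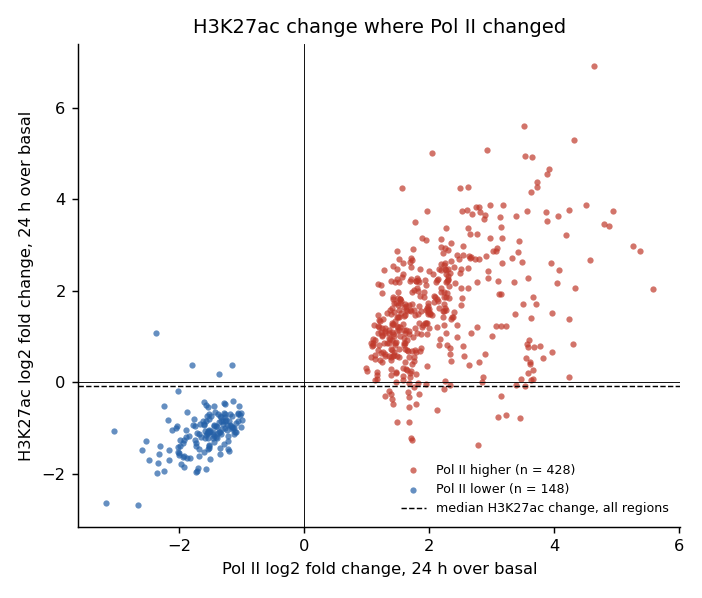
Change of H3K27ac against change of Pol II (log2 fold changes, 24 h IL-4 over basal) at the 428 regions called higher (red) and the 148 called lower (blue) for Pol II, with the median H3K27ac change of all regions as a dashed line. The H3K27ac change is above 0 at 93.5% of the red points and below 0 at 97.3% of the blue points.

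Peaks of 5 transcription factors were counted over the called regions. STAT6 peaks at 24 h covered 67.7% of distal regions with more Pol II (exact binomial interval 62.6% to 72.5% at 95%) and 53.2% of all distal regions, and 38.7% and 17.02% had a STAT6 peak at 24 h and not in basal cells. At promoters with more Pol II the share with a STAT6 peak was 69.7% (51.3% to 84.4%, 33 promoters), against 34.6% of all promoters, while EGR2 peaks covered 75.8% and 74.9%. Regions with less Pol II also held STAT6 peaks, in 76.1% at distal sites at 24 h (67.0% to 83.8%, 73.4% in basal cells) and 61.5% at promoters (40.6% to 79.8%), and 9.17% of the distal falls had a STAT6 peak at 24 h and not in basal cells. PPARg covered 33.4% of distal rises and 25.9% of all distal regions, EGR2 43.7% and 35.5%, and CEBPb 35.4% and 37.4%. PU1, the lineage factor that opens macrophage enhancers, covered 56.8% of distal rises and 70.2% of all distal regions. Distal regions that lost Pol II had PU1 peaks in 95.4% in basal cells and 87.2% at 24 h, and PPARg peaks in 59.6% and 48.6%, against 74.8% and 70.2% (PU1) and 25.7% and 25.9% (PPARg) of all distal regions. Windows of neighbouring regions can share a peak, and these intervals treat them as separate.

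The STAT6 motif TTCNNNNGAA was found in the central 300 bases of 25.9% of distal rises (93 of 359), 8.26% of distal falls and 8.62% of all distal regions. At promoters it was in 24.2% of the rises (8 of 33), 3.85% of the falls and 4.87% of all promoters. The EGR motif was in 16.4% of distal rises and 10.9% of all distal regions, and TTCNNNGAA in 13.6% and 9.21%. PU.1 matches were in 7.80% of distal rises, 16.5% of distal falls and 12.1% of all distal regions. AP-1 (18.1% of distal rises and 20.9% of all distal regions) and C/EBP matches (16.7% and 17.7%) were counted in the same way. These are letters of the reference genome, and a match is not a bound site.

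Pol II of the other 4 strains was read where their own tables held a region with its centre within 500 bp, in libraries normalized with those tables and with 2 to 4 per group. Between 215 and 241 of the 428 SPRET rises had such a region (50.2% to 56.3%, against 65.4% to 73.4% of all SPRET regions), and the change was positive at 95.02% of them in C57, 97.7% in BALB, 99.2% in NOD and 99.6% in PWK. Over all matched regions the change was positive at 47.3%, 72.5%, 46.2% and 45.9% in the same order. Median log2 fold changes of the matched rises were 1.55, 2.12, 1.65 and 1.77, against -0.03, 0.36, -0.04 and -0.04 over all matched regions of these strains. With median-ratio scaling the BALB medians were 1.79 and 0.04. Limma called 45, 82, 0 and 144 of the matched rises higher, against 0.234%, 0.625% and 1.44% of all matched regions in C57, BALB and PWK. In NOD, with 2 libraries per group, it called none of 68932 regions, with 3181 higher and 2090 lower at an unadjusted p under 0.05. Of the SPRET falls, 131 to 139 were matched, and 98.5%, 87.4%, 95.7% and 97.7% were negative, against 52.7%, 27.5%, 53.8% and 54.1% of all matched regions. In BALB 12.6% of the matched falls were positive, or 3.70% with median-ratio scaling. Limma called 10, 3, 0 and 20 of the matched falls lower, against 0.0946%, 0.0391% and 0.262% of all matched regions in C57, BALB and PWK.

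Single regions can be set side by side across strains. The Socs1 distal region had means of 11.1 basal and 534 normalized tags at 24 h in C57 (log2 fold change 5.22), 13 and 296 in BALB (4.43) and 9.02 and 309 in PWK (5.08), all called, where SPRET had 0.937 and 96.2. The centres of these windows lay 400, 496 and 430 bp from that of the SPRET window, so they overlap it only in part and the levels are not of the same bases. At the Cx3cr1 promoter the changes were -3.16, -2.94, -2.68 and -4.65 in C57, BALB, NOD and PWK, called in all but NOD. The Mrc1 promoter changed by 1.29, 1.80, 1.38 and 2.11 in the same strains, called in PWK alone, and by 0.14 in SPRET, where its basal mean of 283 tags compared with 131, 126, 152 and 33.7. At the Rerg promoter, called in SPRET with 3.82 and 23.7 tags, the other strains had at most 2.13 tags in either group. Differences between strains were not tested, because the tables hold different regions and were made separately.

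A fold rule was also applied to Pol II alone, with the minimum fold of 2.5 and minimum of 8 normalized Pol II tags from the study's methods. Here the minimum had to be met in either group, and 1 tag was added to each group mean. The study also required H3K27ac to change by that fold, which was not applied here. By it 843 regions were higher (1.54%) and 441 lower (0.805%), of which limma also called 379 and 103. With 5 tags added in place of 1 the counts fell to 486 and 150. Promoters made up 50 and 37 of the 843 and 441 regions and distal regions 740 and 381. Scaled by median ratios, 1002 regions rose and 312 fell by this rule, and the share of rises moved from 65.7% to 76.3%.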

How the data were processed

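Pol II ChIP-seq was measured in 3 basal and 3 IL-4-treated (24 h) SPRET libraries, grouped by GEO's labels. For alignment the study used Bowtie2 and a genome of each strain, after which the authors shifted positions to mm10. In the deposited tables the signal is, for each library separately, the tag number from HOMER in 1000 bp around a reproducible ATAC-seq peak, which the authors brought to a common library total of 10000000. This does not correct for libraries that differ in how many of their tags fall inside regions. Regions are those accessible in either condition, so Pol II elsewhere is not covered. Multiplied by the library total over 10000000, all 328530 values came within 0.1 read of a whole number, and these reads entered the count tests. Totals of 10334764 to 19476882 tags and chi-square values per degree of freedom between replicates of 4.13 to 7.28 showed that no library was a copy of another in its group. These values cannot tell biological from technical replicates. The tables held 4 value columns that matched no sample, which were left out.

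The 24 h and basal libraries were compared at every region, without a filter on low values, by limma 3.58.1 (lmFit, then eBayes with trend, in R 4.3.3) after adding 1 to the normalized tags and taking log2, at a Benjamini-Hochberg adjusted p under 0.05 over all regions. On this scale the change of low regions is understated, and n is 3 libraries per group throughout. Basal and 24 h libraries with the same replicate number deviated together from their group means over 39668 regions (correlations 0.43, 0.40 and 0.40, against -0.10 to -0.29 for other numbers), so a fit with the number as a block is given beside the main one. edgeR 4.0.16 (quasi-likelihood) and DESeq2 1.42.0 on the recovered reads, a pseudocount of 5, a minimum of 8 normalized tags, median-ratio scaling, promoters taken from the reference annotation, and each library left out in turn were alternatives. H3K27ac, H3K4me3 and H3K4me2 (2 libraries per group) and the other strains were fitted apart in the same way. Tests were checked on simulated data with 200 changed regions. The simulated libraries were drawn independently with a fixed dispersion. They lacked the shared deviation of same-numbered libraries, so the check does not cover it.

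Promoter and distal classes are those of the authors' annotation in the table. Named regions are, among called regions whose groups do not overlap, the 10 largest rises and the 10 largest falls at promoters and at distal sites, 1 per nearest gene, besides every listed gene's promoter that was called and up to 6 uncalled members each of the alternative activation and transcription factor lists with the highest mean. A gene's promoter is the region nearest to any of its starts within 1000 bp. Ccl17, Cish, Fabp4, Il4ra, Jak1, Stat6, Pparg, Egr2, Tnf, Nfkbia, Nlrp3, Il18, S100a8, Plin2, Ccnd3, Birc5, Oas2, Irf8, the markers of other cells, Lyz2, Cd68 and Fcgr1 are named besides, chosen after their values were seen. Some members that the rule selects are not reported here. Loci are the 5 genes with the most called regions in them or nearest to their start. The members, lists and tests were chosen with earlier results of these data known. Factor peaks (an overlap of 1 bp or more) are the authors' lists of peaks reproducible between replicates. Reference sequence and motif matches come from the RefSeq mm10 genome. Low read counts have a floor of 3 reads over a group and exact intervals. Tables were made in Python 3.11.15 (NumPy 2.4.6, pandas 2.3.3, SciPy 1.17.1) and figures with matplotlib 3.10.9.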

Additional observations from a re-analysis of the deposited data

Results flagged for a closer look

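The promoter of Clec10a, a C-type lectin gene, moved in opposite directions in SPRET and in 2 other strains, with groups that did not overlap in any of the 3. In SPRET it held 124, 126 and 145 normalized tags of Pol II basal and 91.3, 86.2 and 84.0 at 24 h (log2 fold change -0.59 ± 0.20, limma adjusted p = 0.22), and with the replicate number as a block it was called lower (limma adjusted p = 0.031). The change was 1.30 in BALB (means of 35.3 and 87.7 tags, limma adjusted p = 0.65) and 0.95 in NOD (60.9 and 114, limma adjusted p = 0.69), and the groups overlapped in C57 and PWK (log2 fold changes 0.71 and 0.38). Without a block no strain passed its own test, and the blocked call in SPRET was lost when median-ratio scaling was added. The difference between strains was not tested.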

How the results depend on the processing

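With the replicate number as a block, 1949 regions were higher and 2644 lower, at promoters 158 and 617 and at distal sites 1633 and 1844. With the block and median-ratio scaling together, an alternative chosen after seeing the data, these were 2284 and 1483, 195 and 298, and 1901 and 1086. Under the block alone the share of rises among calls fell from 74.3% to 42.4%. DESeq2 gave 1013 and 341, 75 and 57, and 853 and 255, and edgeR 303 lower, 42 of promoters and 239 of distal regions. A minimum of 8 normalized tags gave 254 lower and 194 lower distal regions, and promoters taken from the reference annotation gave 50 higher. Leaving out each library in turn gave 38 to 279 regions higher and 1 to 92 lower, 0 to 20 and 0 to 14 promoters, and 33 to 237 and 1 to 69 distal regions. The cause of these differences was not tested, except that leaving out a library also leaves fewer samples. Median-ratio scaling gave 610 and 124, of which 428 and 117 were also called with library totals. By the fold rule a pseudocount of 5 gave 486 higher and 150 lower and a fold of 2 gave 1539 and 1350, and leaving out a library gave 643 to 1093 higher and 262 to 834 lower. H3K27ac was lower at 7 of the regions with less Pol II under median-ratio scaling. With peak centres within 250 bp, STAT6 and PU1 peaks at 24 h covered 59.6% and 50.4% of distal rises, against 50.2% and 65.1% of all distal regions. All 47 named regions that were called kept their direction under every alternative that tested them (a minimum of 8 tags left out 3). Median-ratio scaling and the block kept all 47 calls, while edgeR lost 2, the minimum of tags 1 and the pseudocount 1. DESeq2 gave no adjusted p to 4 of the 47 and kept the other calls. These were at Ly86, Capn3, Tab2 and Kdelr3, with DESeq2 log2 fold changes of -3.54, -3.61, -5.67 and 4.59. Leaving out 24 h replicates 1, 2 and 3 lost 40, 33 and 23 of these calls, and basal replicates 1, 2 and 3 lost 32, 22 and 31. Signs turned only where no call was made: Igf1 at 0.069 with median-ratio scaling, with or without the block, 0.026 by DESeq2 and -0.39 to 0.28 with a library left out, Cebpa at 0.088, 0.079 and -0.28 to 0.28, and Zeb2 at 0.038, 0.045 and -0.22 to 0.10. Depth limits the low regions, where 8 normalized tags are 8.27 to 15.6 reads.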
